A study of Rattus norvegicus with 30 samples.

Results

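Of the 13124 genes in the count table, 7 met thresholds of level and fold and were higher in every repaired plantaris tendon from a rat given GSK2894631A than in every repaired tendon from a rat given none, 7 days after injury. The 6 described here are Enpp2, Tbx4, Tfcp2l1, Sult1a1, AABR07012129.1 and Mamdc2. The genes were chosen by their levels at 7 days: a gene was kept when the lowest level among the 7 treated tendons exceeded the highest among the 5 tendons at 0 mg/kg, the mean of each dose group was at least 1.4 times the 0 mg/kg mean, and the mean of the 7 treated tendons was 3 CPM or more (CPM, the count of a gene per 1000000 counts in the column of its tendon). The 7-day levels of these genes are therefore a description of what chose them and carry no test.

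Plantaris tendons of 3-month-old male Sprague Dawley rats were cut and repaired at once with a Bunnell suture, and GSK2894631A, which inhibits hematopoietic prostaglandin D synthase, was then gavaged 2 times a day at a dose of 2 or 6 mg/kg, or at 0 mg/kg. RNA of the right tendon was sequenced after 7 days (7D; 5, 4 and 3 tendons at 0, 2 and 6 mg/kg) or 21 days (21D; 5 tendons at each dose), and 3 control tendons came from rats with neither surgery nor compound. Every repaired tendon, at 0 mg/kg too, had the tenotomy and the suture. Bulk tendon RNA was read, so fewer cells of a type and less RNA per cell cannot be told apart.

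Total counts were 12405741 to 49909374 per tendon, and the shallowest library was a 7D 6 mg/kg tendon (replicate 4). The tendon markers Tnmd, Fmod, Thbs4, Kera and Comp were read in every group, while Mkx had a mean of 0.353 CPM at 7D 0 mg/kg against 4.14 CPM in control tendons. Skeletal muscle markers stood apart: the 26 measured genes summed to 19.6 to 27.8% of all counts in control tendons, 0.223 to 1.34% at 7D 0 mg/kg, and 0.0200 to 0.0296% in the treated 7D tendons. All 26 had a lower mean at each dose than at 0 mg/kg at 7 days. Adipocyte marker sums are given beside Enpp2 and Sult1a1.

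Few genes met the rule. The 7 genes were 0.0533% of the table. The mirrored rule, with all 7 treated tendons below all 5 at 0 mg/kg, kept 173 genes (1.32%), of which 23 were on the skeletal muscle list. Without the fold and level thresholds, 34 genes (0.259%) had every treated tendon above every 0 mg/kg tendon, and 288 (2.19%) had every treated tendon below. With groups of this size chance gives some such genes. None of the 6 was among the genes of 28 lists of cell type markers and pathways. Each list held at most 26 of the 13124 genes, and the share of all genes on the lists was not counted. That none of the 6 was listed is therefore no result about the set.

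The genes encode proteins of unlike kinds. Enpp2 encodes autotaxin, a secreted enzyme that makes the signalling lipid lysophosphatidic acid, and Sult1a1 encodes a cytosolic sulfotransferase that conjugates phenols and many drugs. Mamdc2 encodes a secreted protein with MAM domains. Tbx4 is a T-box transcription factor best known for its part in forming the hindlimb and its tendons and muscles, and Tfcp2l1 is a transcription factor of the CP2 family known from stem cells and from kidney and gland ducts. AABR07012129.1 is a protein-coding gene model on chromosome 2 that carries only the name of its sequence contig. After a tendon is cut, the gap is filled by inflammatory cells and then by fibroblasts that lay down a scar matrix, and lysophosphatidic acid is among the signals of such tissue in many organs.

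**Figure D1:**
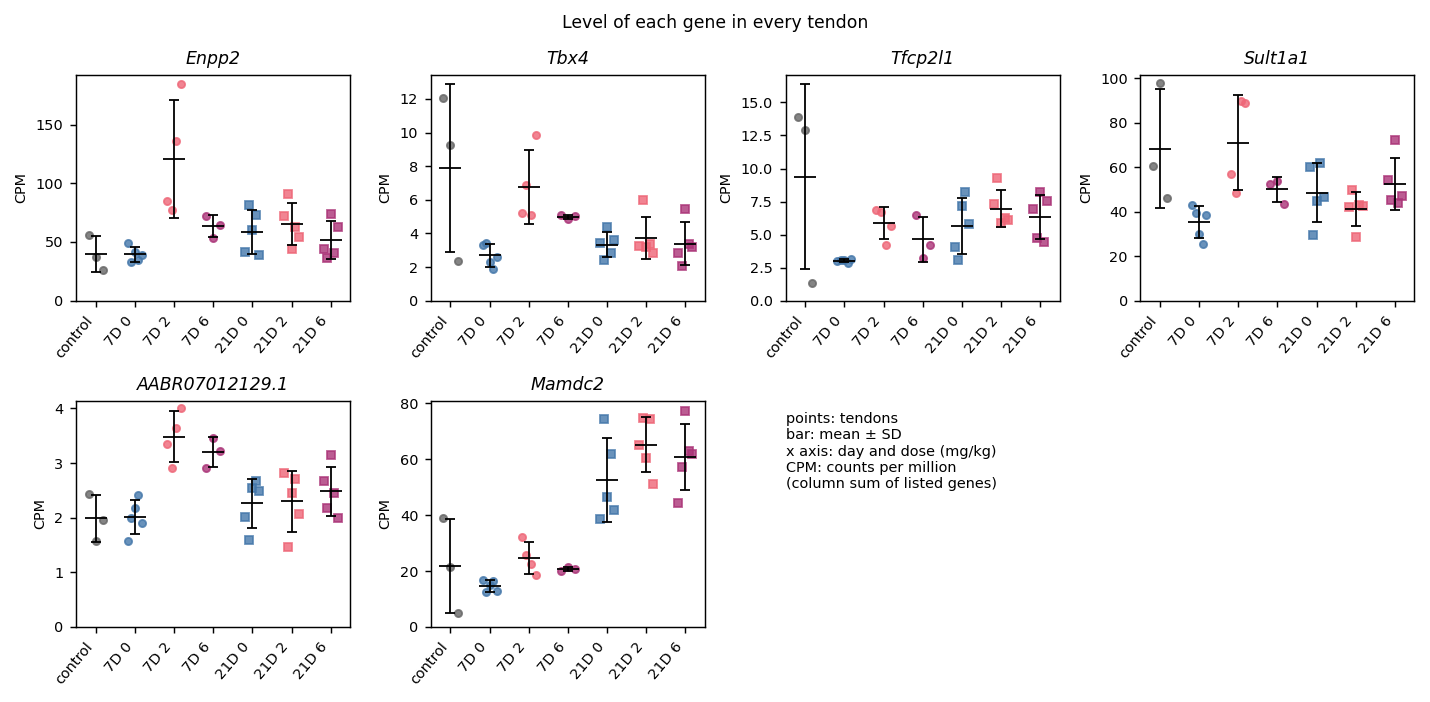
CPM of the 6 genes in each of 30 tendons, by group (control, then day and dose in mg/kg), with the mean and SD of each group. At 7 days all treated tendons of each gene lie above the 0 mg/kg tendons, as the rule requires, while at 21 days the ranges of the 3 doses overlap for each gene.

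Enpp2 (ENSRNOG00000004089, chromosome 7) had the largest ratio to 0 mg/kg. Its level was 48.7, 32.8, 41.5, 35.0 and 39.0 CPM in the 5 tendons at 7D 0 mg/kg, 84.9, 77.2, 136 and 185 CPM in the 4 at 7D 2 mg/kg, and 72.4, 53.2 and 64.8 CPM in the 3 at 7D 6 mg/kg. All 4 tendons at 2 mg/kg lay above all 3 at 6 mg/kg, and the highest pair were replicates 4 and 5 at 2 mg/kg. The means were 39.4 ± 6.21, 121 ± 50.02 and 63.5 ± 9.67 CPM (SD, n = 5, 4 and 3), which is 3.07 times the 0 mg/kg mean at 2 mg/kg and 1.61 times at 6 mg/kg. In control tendons it was 55.9, 37.1 and 25.9 CPM, which spans the range of the 7D 0 mg/kg tendons.

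Sult1a1 (ENSRNOG00000019342, chromosome 1) was also highest at 2 mg/kg. It was read at 43.1, 39.4, 30.1, 25.6 and 38.6 CPM at 7D 0 mg/kg, at 57.1, 48.5, 89.9 and 88.8 CPM at 7D 2 mg/kg, and at 52.6, 54.0 and 43.6 CPM at 7D 6 mg/kg. The lowest treated tendon, at 6 mg/kg, exceeded the highest 0 mg/kg tendon by 1.10%, the smallest margin of the 6 genes. By dose, its means of 35.4 ± 7.27, 71.1 ± 21.4 and 50.1 ± 5.65 CPM (SD, n = 5, 4 and 3) put the treated groups at 2.01 and 1.42 times the untreated one. Control tendons had 60.7, 98.1 and 46.1 CPM, and all 3 lay above all 5 tendons at 7D 0 mg/kg.

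Adipocyte markers were read in the same tendons. The 9 markers summed to 2880.3, 2666, 2753, 1229.8 and 2102 CPM at 0 mg/kg, to 1781, 2347, 5246 and 4584 CPM at 2 mg/kg (replicates 2 to 5), and to 4922, 2271 and 2294 CPM at 6 mg/kg. The ranges of the doses overlap, but the 2 mg/kg tendons with the highest sums, replicates 4 and 5, are the pair with the highest Enpp2 and Sult1a1. The 6 mg/kg tendon with a sum of 4922 CPM had Enpp2 at 72.4 CPM and Sult1a1 at 52.6 CPM, below both tendons of the pair. Within its own group it was the highest in Enpp2 but not in Sult1a1. At 0 mg/kg the tendon with the highest sum, replicate 1, was also the highest in Enpp2 (48.7 CPM) and Sult1a1 (43.1 CPM). The 0 mg/kg tendon with the lowest sum, replicate 4, was the lowest in Sult1a1 (25.6 CPM) but not in Enpp2. All 9 markers, none of them at 0, had a higher mean at each dose than at 0 mg/kg, by 1.08 to 2.52 times at 2 mg/kg and 1.198 to 2.07 times at 6 mg/kg. Without the pair of 2 mg/kg tendons, which was left out after seeing the data, the ratio at 2 mg/kg was 2.06 for Enpp2 and 1.49 for Sult1a1. It was also lower for Tbx4 (2.24 against 2.51) and AABR07012129.1 (1.55 against 1.73), and higher for Tfcp2l1 (2.25 against 1.94) and Mamdc2 (1.98 against 1.69). At 21 days the order of the sums was turned, with 1324 to 2182 CPM without compound, 396 to 1606 CPM at 2 mg/kg and 689 to 1145 CPM at 6 mg/kg, so that all 5 tendons at 6 mg/kg lay below all 5 without compound. The median log2 fold change of the 9 markers at 21 days was -1.66 at 2 mg/kg and -0.77 at 6 mg/kg, beside -0.03 and 0.01 over all genes, and none passed the test. The part of these markers in the result was not tested.

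**Figure D2:**
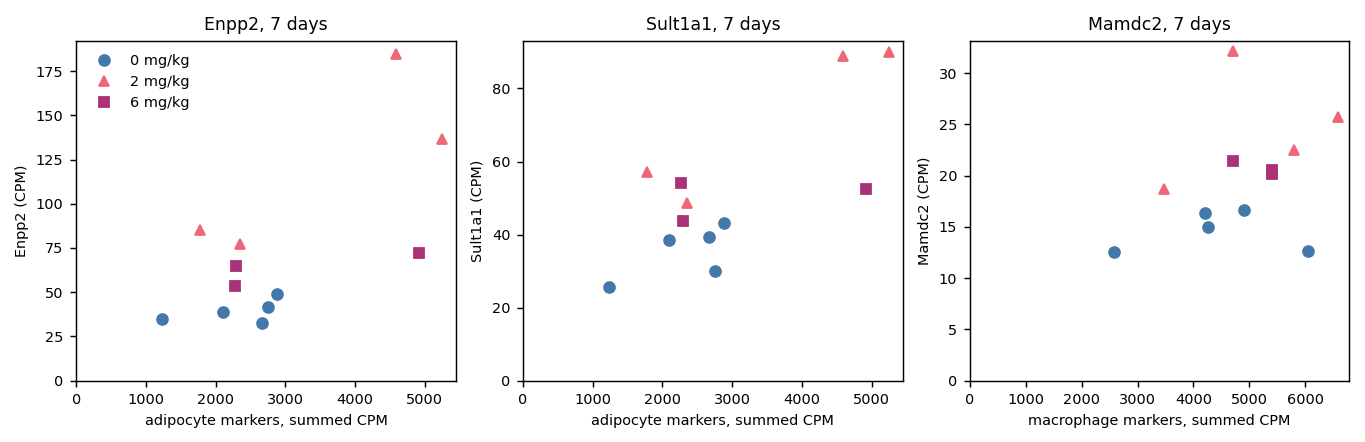
CPM of Enpp2 and Sult1a1 against the summed CPM of 9 adipocyte markers, and of Mamdc2 against that of 11 macrophage markers, in the 12 tendons at 7 days (1 point per tendon, by dose). The 2 mg/kg tendons highest in adipocyte markers, at 5246 and 4584 CPM, are the highest in Enpp2 and Sult1a1. A 6 mg/kg tendon with a like adipocyte sum has Enpp2 at 72.4 CPM, the highest of its group, and Sult1a1 at 52.6 CPM. The macrophage sums of the 3 doses overlap.

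Mamdc2 (ENSRNOG00000024620, chromosome 1) was 16.7, 12.5, 15.0, 16.4 and 12.7 CPM at 7D 0 mg/kg, 32.2, 25.7, 22.6 and 18.7 CPM at 7D 2 mg/kg, and 20.2, 21.4 and 20.6 CPM at 7D 6 mg/kg. It was the only gene of the 6 whose lowest treated tendon was at 2 mg/kg. The means of 14.6 ± 1.98, 24.8 ± 5.70 and 20.7 ± 0.647 CPM (SD, n = 5, 4 and 3) gave ratios of 1.69 and 1.42, the second close to the threshold of 1.4. Its highest levels came at 21 days, at 38.7 to 74.4 CPM without compound, 51.2 to 74.6 CPM at 2 mg/kg and 44.3 to 77.3 CPM at 6 mg/kg, and every 21D tendon lay above every 7D tendon. Summed macrophage markers, 11 genes with none at 0, were 4909.9, 2575, 4259, 4201 and 6055 CPM at 0 mg/kg, 4711, 6586, 5796 and 3477 CPM at 2 mg/kg and 5411, 4699 and 5406 CPM at 6 mg/kg. T cell and NK cell markers summed to 120.3 to 337 CPM at 0 mg/kg, 89.8 to 261 CPM at 2 mg/kg and 249.8 to 334 CPM at 6 mg/kg. These ranges overlap between doses, and the part of these markers in the level of Mamdc2 at 7 days was not tested.

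Tbx4 (ENSRNOG00000003544, chromosome 10) was 3.31, 3.42, 2.29, 1.87 and 2.57 CPM at 7D 0 mg/kg, 5.21, 6.88, 5.10 and 9.83 CPM at 7D 2 mg/kg, and 5.09, 4.84 and 5.04 CPM at 7D 6 mg/kg. All 4 tendons at 2 mg/kg were above all 3 at 6 mg/kg, though the lowest of the former, 5.10 CPM, and the highest of the latter, 5.09 CPM, were nearly equal. Tbx4 had the widest margin of the 6 genes, 41.3%, on counts of 118 reads in the highest 0 mg/kg tendon and 60 in the lowest treated tendon. The ratios of the means were 2.51 and 1.85. Control tendons had 12.1, 9.29 and 2.35 CPM, and control replicate 4, the last of these, lay within the 7D 0 mg/kg range.

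Tfcp2l1 (ENSRNOG00000002414, chromosome 13) hardly varied at 7D 0 mg/kg, at 2.98, 3.10, 3.07, 2.85 and 3.15 CPM. It was 6.89, 6.73, 4.21 and 5.68 CPM at 7D 2 mg/kg and 6.51, 3.22 and 4.198 CPM at 7D 6 mg/kg. The lowest treated tendon held 40 reads and exceeded the highest 0 mg/kg tendon by 2.46%, and the ratios of the means were 1.94 and 1.53. Control tendons had 13.9, 12.9 and 1.32 CPM, with replicate 4 again far below the others and below every repaired tendon.

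AABR07012129.1 (ENSRNOG00000016146) was low throughout. It was 1.58, 2.00, 2.17, 2.41 and 1.90 CPM at 7D 0 mg/kg, 3.35, 2.91, 3.65 and 4.01 CPM at 7D 2 mg/kg, and 2.91, 3.47 and 3.23 CPM at 7D 6 mg/kg, from 43 to 145 reads in a treated tendon. Its ratios of 1.73 and 1.59 were the most alike of the 6 genes between doses. Control tendons, at 2.43, 1.58 and 1.96 CPM, covered the 7D 0 mg/kg range.

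The margin between the groups was set beside its counting error. The 95% exact Poisson intervals of the highest 0 mg/kg tendon and the lowest treated tendon overlapped in 6 of 6 genes, and the margin was under 5% in 2 of 6 (Sult1a1 and Tfcp2l1). These intervals cover counting error only, since the reads carry no molecular identifiers and copies of one molecule count more than 1 time. In 5 of the 6 the lowest treated tendon was one at 6 mg/kg. The mean at 2 mg/kg was above that at 6 mg/kg in 6 of 6 genes, beside 46.7% of all genes, and all 2 mg/kg tendons lay above all 6 mg/kg tendons in 2 of 6 (Enpp2 and Tbx4), beside 4.42% of all genes. The rule chose the genes on these same values, with a condition on each dose. The shares beside them are therefore no test of a difference between doses.

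**Figure D3:**
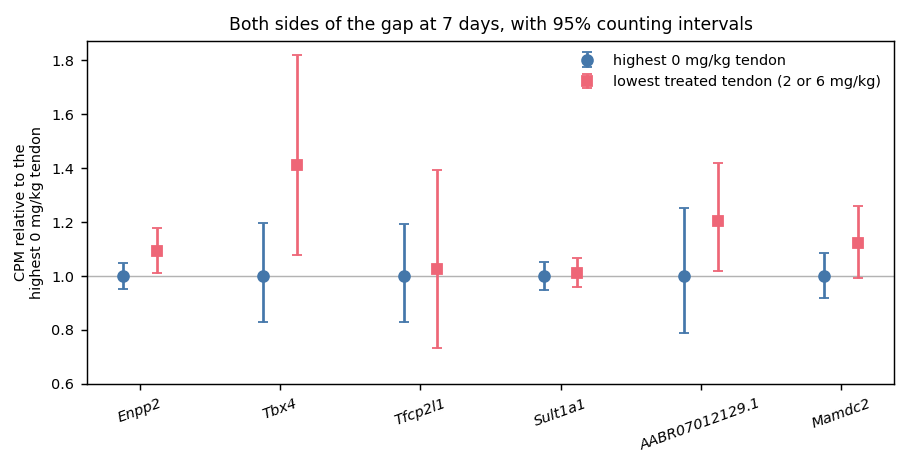
Highest 0 mg/kg tendon and lowest treated tendon of each gene at 7 days, each with its 95% exact Poisson interval, in CPM relative to the former. The intervals overlap for all 6 genes, and Tbx4 has the widest margin, at 41.3%.

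Genes just outside the rule were close in value to those inside. Kcnt2, a potassium channel gene, had ratios of 3.19 and 1.91, but its lowest treated tendon (4.51 CPM) was below its highest 0 mg/kg tendon (4.68 CPM). C6, a component of the complement attack complex, missed in the same way at 47.2 against 49.3 CPM. Ptprd, Fez1 and Wisp2 had no overlap between the groups but a ratio at 6 mg/kg of 1.38, 1.38 and 1.34. P2rx7, a receptor for extracellular ATP, had a treated mean of 2.62 CPM, under the level threshold. Of the genes next to a member in the RefSeq gene order (GRCr8), those in the table had lower ratios at 2 mg/kg than the member: Ccn3 and Taf2 beside Enpp2 had ratios of 1.11 and 0.958 at 2 mg/kg, and Tbx2 beside Tbx4 had 0.5002. A member has a ratio of at least 1.4 by the rule, while the median over all genes at 2 mg/kg was 0.974. That neighbours were lower was therefore largely set in advance.

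RefSeq promoter sequence was matched for 4 of the 6 genes. The 250 bases before the start of Tbx4, Tfcp2l1, Sult1a1 and Mamdc2 are shown. The 4 were not picked by the correlations between the genes, and a tie between these sequences and the levels was not tested. The windows are on GRCr8, 5′ to 3′ on the strand of the gene, at chr10:71228306-71228555 (plus strand), chr13:32286393-32286642 (plus), chr1:190706113-190706362 (minus) and chr1:230442992-230443241 (minus). Capitals mark matches on either strand to CCAAT or GGGCGG, which do not overlap here.
Tbx4: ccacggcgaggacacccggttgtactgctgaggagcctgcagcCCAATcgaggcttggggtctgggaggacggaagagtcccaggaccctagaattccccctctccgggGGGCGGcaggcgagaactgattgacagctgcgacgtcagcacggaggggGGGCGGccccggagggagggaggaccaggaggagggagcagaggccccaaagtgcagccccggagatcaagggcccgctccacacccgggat
Tfcp2l1: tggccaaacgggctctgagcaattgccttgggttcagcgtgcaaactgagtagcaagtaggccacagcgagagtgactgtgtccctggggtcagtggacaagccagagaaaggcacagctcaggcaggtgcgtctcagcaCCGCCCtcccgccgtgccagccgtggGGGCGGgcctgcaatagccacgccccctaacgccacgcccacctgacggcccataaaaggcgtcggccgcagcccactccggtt
Sult1a1: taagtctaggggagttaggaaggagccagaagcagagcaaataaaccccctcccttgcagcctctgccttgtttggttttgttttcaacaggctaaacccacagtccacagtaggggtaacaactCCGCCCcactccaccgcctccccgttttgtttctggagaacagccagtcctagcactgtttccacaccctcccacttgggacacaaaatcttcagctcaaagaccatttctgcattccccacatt
Mamdc2: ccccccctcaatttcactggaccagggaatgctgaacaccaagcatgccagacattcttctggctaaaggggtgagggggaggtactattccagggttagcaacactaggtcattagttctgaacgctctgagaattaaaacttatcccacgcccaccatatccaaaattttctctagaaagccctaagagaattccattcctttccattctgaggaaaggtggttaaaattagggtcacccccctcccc
GGGCGG, the GC box, was found 2 times each before Tbx4 and Tfcp2l1 and 1 time before Sult1a1, and 32.4% of 27457 RefSeq windows of this length held it. CCAAT stood before Tbx4 alone of the 4, and 34.3% of windows held it. Of the other motifs searched on both strands, none was in the 4 windows. TATAAA was in 13.1% of all windows, TGACTCA in 3.98%, TGACGTCA in 1.70% and CACGTG in 5.79%. The Tbx4 and Tfcp2l1 windows were 68.4 and 64.8% G and C with 16 and 17 CG dinucleotides, and the Sult1a1 and Mamdc2 windows 51.2 and 47.6% with 3 and 2, beside medians of 52.0% and 6 over all windows. A match is a description of the letters and not of a bound site.

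The 18 tendons outside the rule (control and 21D) gave the tests. A gene was tested where its mean reached 3 CPM in any of those 4 groups, which left 12204 genes and 5 of the 6 members. AABR07012129.1 fell below the filter, at 2.26 ± 0.452, 2.30 ± 0.553 and 2.49 ± 0.450 CPM at 21D 0, 2 and 6 mg/kg (SD, n = 5 each). Fold changes are log2 values after TMM scaling, with adjusted p from the quasi-likelihood test of edgeR over all 12204 genes.

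At 21 days the doses did not separate the genes. None of the 5 passed the test at 2 or 6 mg/kg against 0 mg/kg, and neither did any gene of the table (0.0% in each direction; edgeR), where 792 and 608 genes had an unadjusted p under 0.05 and DESeq2 called 8 and 3 genes, none a member. Enpp2 was 41.7, 81.3, 60.2, 72.8 and 38.5 CPM at 21D 0 mg/kg, 71.7, 91.2, 44.3, 62.8 and 54.6 CPM at 2 mg/kg and 44.2, 36.2, 73.9, 41.0 and 63.1 CPM at 6 mg/kg, with the 3 ranges overlapping. Its log2 fold change was 0.15 (95% interval -0.37 to 0.67) at 2 mg/kg and -0.13 (-0.66 to 0.39) at 6 mg/kg. Tbx4 ranged over 2.42 to 4.36 CPM without compound, 2.86 to 5.98 CPM at 2 mg/kg and 2.04 to 5.46 CPM at 6 mg/kg, with 0.16 (-0.54 to 0.86) and 0.06 (-0.64 to 0.76). Tfcp2l1, at 3.08 to 8.25, 5.87 to 9.31 and 4.48 to 8.19 CPM, had the widest intervals, -0.54 to 1.15 and -0.63 to 1.06.

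The other pair at 21 days were Sult1a1 and Mamdc2. Sult1a1 had a log2 fold change of -0.23 (-0.67 to 0.21) at 2 mg/kg and 0.17 (-0.27 to 0.61) at 6 mg/kg, on levels of 29.4 to 62.1, 28.8 to 49.5 and 43.9 to 72.3 CPM. Mamdc2 had 0.32 (-0.34 to 0.99) and 0.27 (-0.39 to 0.93). These intervals do not show that the doses act alike, and for Tfcp2l1 they reach past a log2 difference of 1. Both comparisons share the 21D 0 mg/kg tendons.

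**Figure D4:**
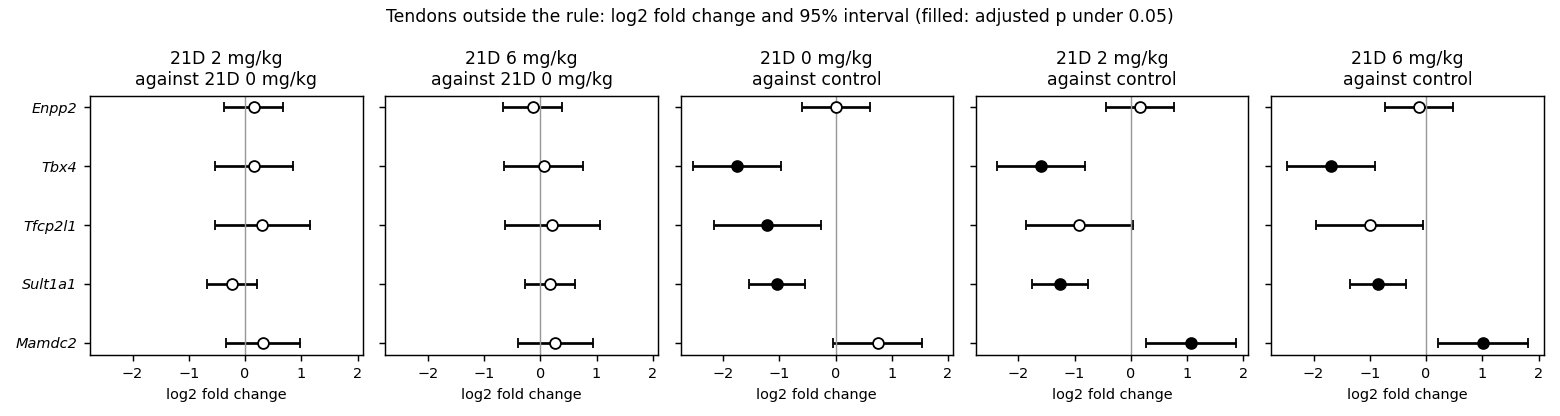
Log2 fold change and 95% interval (edgeR quasi-likelihood fit of the 18 tendons outside the rule) of 5 genes in 5 comparisons, filled where the adjusted p is under 0.05. All intervals between doses at 21 days span 0, and against control tendons Tbx4 and Sult1a1 were lower at each dose.

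Against control tendons, Tbx4 and Sult1a1 were lower at 21 days at every dose. Tbx4 had a log2 fold change of -1.75 ± 0.37 (SE; adjusted p = 0.000742) at 0 mg/kg, -1.59 ± 0.37 (SE; adjusted p = 0.00129) at 2 mg/kg and -1.69 ± 0.37 (SE; adjusted p = 0.00103) at 6 mg/kg. For Sult1a1 these were -1.04 ± 0.24 (SE; adjusted p = 0.00128), -1.27 ± 0.23 (SE; adjusted p = 0.000207) and -0.86 ± 0.24 (SE; adjusted p = 0.00494). Tfcp2l1 was lower at 0 mg/kg, with -1.22 ± 0.45 (SE; adjusted p = 0.0268), and had -0.91 and -1.004 (adjusted p = 0.0833 and 0.0635) at 2 and 6 mg/kg. In all, 3, 2 and 2 of the 5 were lower at 0, 2 and 6 mg/kg, beside 34.0%, 36.1% and 33.0% of all genes tested, so that being lower is common in these comparisons, which share the 3 control tendons. The call on Tfcp2l1 was lost without control replicate 2 (adjusted p = 0.216), control replicate 3 (0.125), or 21D 0 mg/kg replicate 1 (0.0712) or 2 (0.0740), and that on Sult1a1 at 6 mg/kg without control replicate 3 (0.0540). With scaling by library size only, which moves the median log2 fold change of all genes by 0.58, 0.56 and 0.51, Sult1a1 passed the test at 2 mg/kg alone, with the same direction at each dose, and Tfcp2l1 no longer passed at 0 mg/kg (0.181).

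Mamdc2 pointed the other way. Mamdc2 was higher than in control tendons by 1.07 ± 0.38 (SE; adjusted p = 0.0200) at 21D 2 mg/kg and 1.02 ± 0.38 (SE; adjusted p = 0.0281) at 21D 6 mg/kg, and had 0.75 (adjusted p = 0.0899) at 0 mg/kg. That is 0, 1 and 1 of 5 genes higher at 0, 2 and 6 mg/kg, beside 29.7%, 31.0% and 28.6% of all genes. Control replicate 4 was the lowest control, at 5.14 CPM. The call at 6 mg/kg was lost without it (adjusted p = 0.0781), without control replicate 3 (0.0748) and without replicate 3 of that group (0.0530). The call at 2 mg/kg was lost without control replicate 3 (0.0533). The size also rests on single controls: in order of dose, its change was 1.53, 1.87 and 1.77 without control replicate 2, where each passed the test (adjusted p = 0.00210, 0.000472 and 0.000858), and 0.35, 0.68 and 0.61 without control replicate 4.

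Enpp2 did not pass the test against control tendons at any dose. Its log2 fold change was 0.01 (-0.59 to 0.61) without compound, 0.16 (-0.44 to 0.77) at 2 mg/kg and -0.13 (-0.73 to 0.47) at 6 mg/kg.

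The order of the 7 groups differed between genes. By mean CPM, 7D 0 mg/kg was the lowest group for Enpp2, Tbx4, Tfcp2l1, Sult1a1 and Mamdc2, and control tendons the lowest for AABR07012129.1. The rule put 7D 0 mg/kg below both treated groups at 7 days, so its low place in these orders was in large part set in advance. For Enpp2 the lowest place rests on 39.4 CPM against 39.6 CPM in control tendons. The highest group was 7D 2 mg/kg for Enpp2, Sult1a1 and AABR07012129.1, control for Tbx4 and Tfcp2l1, and 21D 2 mg/kg for Mamdc2. Neighbouring groups in these orders overlapped in their tendon values, except 7D 6 and 7D 2 mg/kg for Tbx4, 7D 0 and 7D 6 mg/kg for Tfcp2l1 and Mamdc2, and 7D 2 and 21D 0 mg/kg for Mamdc2. Control levels depend on the scaling: with TMM the control mean was 92.9 CPM for Sult1a1, above 7D 2 mg/kg at 68.1 CPM, and 54.4 CPM for Enpp2, beside 36.8 CPM at 7D 0 mg/kg. For AABR07012129.1 the lowest group with TMM was 7D 0 mg/kg at 1.88 CPM, and the control mean of 2.81 CPM lay above the 3 groups at 21 days.

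Within groups, no pair of the genes passed a test of correlation. Over the 18 tendons outside the rule, log2 TMM-scaled CPM were taken as deviations from the group mean, and 183 relations were computed and adjusted together, 15 between the genes and 168 with the summed markers of 28 lists. Tbx4 and Tfcp2l1 had the highest r of the 15 pairs, with r = 0.828 and rho = 0.659 (n = 18; two-sided permutation within groups, p = 0.00361 and 0.019; adjusted 0.115 and 0.268; r = 0.607 without the 2 tendons farthest from the Tbx4 median), and 0.576 in the 15 tendons at 21 days. Enpp2 and Mamdc2 gave r = 0.626 and rho = 0.711 (n = 18; permutation p = 0.00378 and 0.0039; adjusted 0.115 and 0.119; r = 0.624 without the 2 farthest). Mamdc2 with Tfcp2l1 and with Tbx4 gave r = 0.707 and 0.681 (n = 18; permutation p = 0.168 and 0.0954; adjusted 0.451 and 0.381), which rested on 2 tendons, with r = 0.106 and 0.155 without them. The tendons share the libraries and the mix of cells behind both values of each pair.

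Immune cell markers moved with Mamdc2. By Pearson, 2 of the 168 relations with marker lists had an adjusted p under 0.05, both of Mamdc2. Summed T cell and NK cell markers and Mamdc2 gave r = 0.853 and rho = 0.915 (n = 18; permutation p = 0.00025 and 4e-05; adjusted 0.0229 and 0.00732; r = 0.855 without the 2 farthest). Summed macrophage markers and Mamdc2 gave r = 0.820 and rho = 0.837 (n = 18; permutation p = 0.00017 and 0.0005; adjusted 0.0229 and 0.0457; r = 0.741 without the 2 farthest). Enpp2 gave r = 0.717 with the former and 0.761 with the latter (n = 18; permutation, adjusted p = 0.115 and 0.0884), with rho = 0.765 and 0.742 (adjusted 0.0476 and 0.0739). Other lists had an r of like size that did not pass: for Mamdc2, 0.818 with fibroblast and scar matrix genes and -0.756 with endothelial markers (n = 18; permutation, adjusted p = 0.278 and 0.25), and with Schwann cell and nerve markers 0.858 for Tfcp2l1 and 0.742 for Tbx4 (adjusted p = 0.25 and 0.286). In the 15 tendons at 21 days r was 0.351, -0.725, 0.490 and 0.272, in the same order. The adipocyte sum gave r = 0.320 with Enpp2 and 0.201 with Sult1a1 (n = 18; permutation, adjusted p = 0.519 and 0.703), and the skeletal muscle sum -0.626 with Enpp2 and -0.399 with Mamdc2 (adjusted p = 0.122 and 0.122). Over the 15 tendons at 21 days these r were 0.555, 0.197, -0.663 and -0.667.

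**Figure D5:**
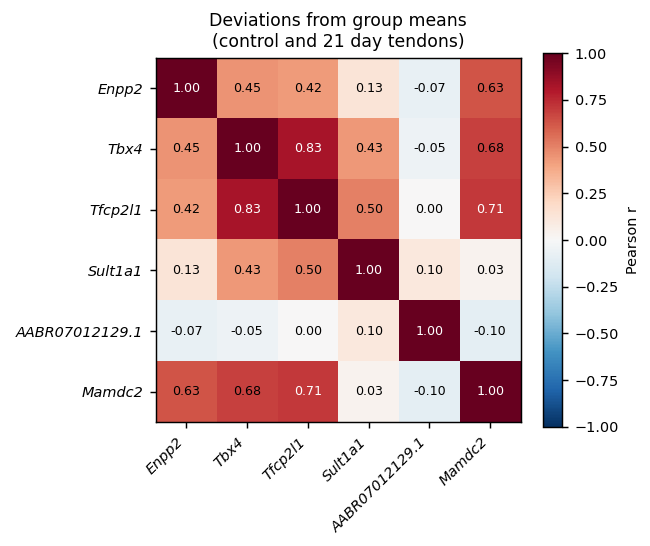
Pearson r between the within-group deviations (log2 TMM-scaled CPM) of each pair of the 6 genes over 18 control and 21-day tendons. Tbx4 and Tfcp2l1 have r = 0.83, Mamdc2 has 0.71 with Tfcp2l1, 0.68 with Tbx4 and 0.63 with Enpp2, and AABR07012129.1 lies near 0 with each of the others.

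By the same measure over all genes, the closest genes were Slc1a4, Kcnab2 and AABR07059041.1 to Mamdc2 (r = 0.958, 0.951 and 0.948). The closest to Enpp2 were Vit (0.895) and Etv1 (0.853). The closest to Tbx4 were Pitx1 (0.894), the homeobox gene that marks the hindlimb, and nearly level with it Rtn4r (0.886) and Adh6 (0.878). For Tfcp2l1 they were AABR07025387.1, C1qtnf7 and Smarcd2 (0.942, 0.917 and 0.914), and for Sult1a1 RGD1310507 (0.857). These are descriptions over 18 tendons, and each r is among the highest out of all genes compared. The 18 include the 3 control tendons, which differed widely in Tbx4, Tfcp2l1 and Mamdc2, and these r were not computed without them.

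The pathways around the genes were read from lists written after the genes were known. Of 7 other genes of lysophosphatidic acid, none had a ratio of at least 1.4 at both doses at 7 days. The share of all genes that did was not counted, and the median ratios over all genes were 0.974 and 0.990 at 2 and 6 mg/kg. Over the 7 genes the ratios ran from 0.792 to 1.59 at 2 mg/kg and from 0.758 to 1.18 at 6 mg/kg, on both sides of 1. Lpar1, a receptor for this lipid, had 1.59 and 1.13, and Plpp3, which breaks it down, 1.34 and 1.05. The 8 genes tested at 21 days included Enpp2, which passed the test against control tendons at no dose. Of the 8, 3 were higher than in control tendons and 1 was lower at each dose. Lpar1 was among the higher at 2 mg/kg (log2 1.11 ± 0.19, SE). None of the 8 passed the test between doses. Over all genes 29.7%, 31.0% and 28.6% were higher than in control tendons at 0, 2 and 6 mg/kg, and 34.0%, 36.1% and 33.0% lower, so the counts of these small lists are read beside those shares.

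The remaining families are to be read beside the same shares of all genes, 28.6% to 31.0% higher and 33.0% to 36.1% lower than in control tendons. None of 12 other T-box and hindlimb genes had a ratio of at least 1.4 at both doses at 7 days, a count that has no share of all genes beside it either. Tbx1 and Tbx2 had 0.537 and 0.5002 at 2 mg/kg, 0.522 and 0.640 at 6 mg/kg. Pitx1 had 1.29 and 0.902. Of the 11 tested at 21 days, Tbx4 included, 6 were lower than in control tendons at each dose, and 2, 3 and 2 were higher at 0, 2 and 6 mg/kg. Among 4 other sulfation genes, the ratios at 7 days ran from 0.874 to 1.44 at 2 mg/kg and from 0.748 to 1.27 at 6 mg/kg. Papss2, which makes the sulfate donor, had 1.27 and 1.05. The 5 tested at 21 days were these 4 and Sult1a1. Of the 5, 3 were higher than in control tendons at each dose, and Sult1a1 was not among them. At 0, 2 and 6 mg/kg 1, 1 and 2 were lower, Sult1a1 at each dose. The CP2 relatives of Tfcp2l1, Tfcp2 and Ubp1, had 1.11 and 0.847 at 2 mg/kg, and 2, 1 and 1 of the 3 genes were lower than in control tendons at 21D 0, 2 and 6 mg/kg, none higher.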

How the data were processed

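The authors used fastp for trimming, STAR for mapping to rn6 and Ensembl exons for counting, and deposited raw counts per gene without normalization, which cover the listed genes and not whole libraries. Their second table holds edgeR fold changes, p-values and false discovery rates, which were not used; chromosomes and, as other values, the gene width were taken from it as deposited. The labels gave each tendon its group, and no 2 tendons of a group agreed within sampling noise. The members, lists and tests were chosen with earlier results of these data known. Of the 7 members, 1 is not reported here.

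Levels are CPM by column sum. A quasi-likelihood model (edgeR 4.0.16, R 4.3.3; TMM, 1 mean per group, no covariate) was fitted to the 18 tendons outside the rule, because the rule selects genes with small spread at 7 days, and p-values were adjusted by Benjamini-Hochberg at 0.05. Correlations used log2(CPM + 0.5) and 100000 permutations. A count of 3 was worth 0.0601 to 0.242 CPM. Alternatives were DESeq2 1.42.0, other scalings, filters, sample sets and thresholds, a replicate block and leaving out each tendon.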

Additional observations from a re-analysis of the deposited data

Results flagged for a closer look

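One value stood far from its group. Tbx4 was 5.98 CPM in replicate 2 at 21D 2 mg/kg, while the other 4 tendons of that group lay between 2.86 and 3.38 CPM, a gap wide enough for the Dixon test at its 95% limit. The test was run 30 times, on 6 genes in the 5 groups of more than 3 tendons, and gave this 1 flag, and chance gives about 1 in 20. Without that tendon the log2 fold change of Tbx4 against 21D 0 mg/kg went from 0.16 to -0.06, neither past the threshold (edgeR).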

How the results depend on the processing

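The set depends on its thresholds and on single tendons. It held 18 genes at a fold threshold of 1.2, none at 2, 8 at a CPM minimum of 1 and 4 at a minimum of 10, and 6 with TMM or RLE scaling. Leaving out each of the 12 tendons at 7 days gave 7 to 23 genes, with 23 without 7D 0 mg/kg replicate 1, 15 without its replicate 5, and 13 without 7D 2 mg/kg replicate 2 or 7D 6 mg/kg replicate 4. Enpp2, Tbx4 and AABR07012129.1 stayed in all 12 of these sets, Tfcp2l1 in 11, Mamdc2 in 9 and Sult1a1 in 8. These sets use the tendons that chose the genes, and leaving a tendon out can only loosen the condition on overlap. A member could be lost only through the fold or level threshold, so staying in was largely set in advance and is no test. Between doses at 21 days no member was called under any alternative, DESeq2 and the no-filter fit with AABR07012129.1 included.

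Against control tendons, the members higher at 21D 0 mg/kg numbered 0 by the fit reported, 1 with library size only, all 30 tendons or the replicate block, and 0 to 1 without single tendons. At 21D 2 and 6 mg/kg 1 became 0 with only the 2 groups compared, and 0 to 1 without single tendons. The members lower numbered 1 with library size only at 21D 0 mg/kg (3 as reported) and at 21D 6 mg/kg (2 as reported), and 2 to 3, 2 to 3 and 1 to 3 without single tendons. Tfcp2l1 decided the other moves: at 21D 0 mg/kg 3 became 2 with the replicate block (its adjusted p = 0.108) or with only the 2 groups compared (0.126), and at 21D 2 and 6 mg/kg 2 became 3 with all 30 tendons (0.0444 and 0.0270). The cause of these moves was not tested. Log2 fold changes near 0 changed sign: Enpp2 at 21D 6 mg/kg against control was 0.38 with library size only and 0.022 with the block. Without single tendons the ranges were -0.062 to 0.28 and -0.18 to 0.19 for Tbx4 at 21D 2 and 6 against 0 mg/kg, and -0.11 to 0.37 and -0.26 to 0.20 for Enpp2 at 21D 0 and 6 mg/kg against control.

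Replicate numbers showed no steady pairing of the tendons. Deviations of 24 same-numbered pairs correlated from -0.73 to 0.70, and 11 of them were over 0.1. Of 18 tendons, 5 correlated best with their own number. The share that chance gives was not counted, and a batch shared by number was not tested. The 7-day ratios moved by less than 1 SD with TMM scaling or without muscle counts, alternatives chosen after seeing the data. At these depths a margin of a few percent between tendons is within counting error.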
